A study of Mus musculus with 2 samples.

Results

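The genes described here are the chemokines and chemokine receptors of mouse skin keratinocytes, taken as every gene whose symbol on the array starts with Ccl, Cxcl, Ccr or Cxcr followed by a digit, together with Cx3cl1 and Cx3cr1. This gave 50 of the 17871 named genes on the array (63 of 25697 probes), of which 36 encode ligands and 14 encode receptors. Where a gene had several probes, the one brightest over both arrays stood for it. RNA was compared between a pool labelled vitamin D receptor (VDR) knockout (KO), from mice with floxed Vdr alleles and a Cre recombinase driven by the keratin 14 promoter (VDR fl/fl K14 driven Cre), and a pool of littermate controls (CON) with floxed alleles alone (VDR fl/fl). All mice were 3 months old and were fed a low calcium diet, and keratinocytes were isolated from trypsin-treated epidermis. Each group was 1 array of RNA from 3 mice, so there is no spread between replicates and no test was made. Every difference below describes these 2 arrays. The promoter confines the deletion to keratin 14-expressing cells and their descendants, so immune cells within the epidermis would keep the receptor.

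Chemokines are small secreted proteins that guide leukocytes along gradients, and they act through receptors coupled to G proteins. Keratinocytes make some of them constantly, which keeps Langerhans cells and T cells in healthy epidermis, and make others when stimulated by interferon, interleukin 1 or tumour necrosis factor. Most of the receptors are carried by leukocytes, which are few among keratinocytes in an epidermal preparation.

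Signals are the deposited normalized intensities, a linear scale that still contains the background of the array. A gene was called detected where its signal rank corresponded to a detection p under 0.05, which meant a signal of at least 176.6 on the array labelled KO and 178.5 on the array labelled CON. Differences are log2 values, the array labelled KO minus the array labelled CON, after removal of the background, and they exceed the ratio of the printed signals where signals are low. Where 1 array was not well above background, the difference is a bound ("at least"). Signals of different probes are not comparable with each other. Summed signals of the marker lists below include background and undetected genes, so they do not measure cell content.

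In total, 16 of the 50 genes (32.0%) were detected on at least 1 array, against 53.4% of all named genes. The detected set held 14 of 36 ligands and 2 of 14 receptors. By family, 7 of 23 Ccl genes, 6 of 12 Cxcl genes and Cx3cl1 were detected, against 1 of 10 Ccr genes, 1 of 3 Cxcr genes and no Cx3cr1. Of the 16, 11 were detected on both arrays, 3 on the array labelled KO alone and 2 on the array labelled CON alone. Over all named genes, 8393 of the 9540 detected were detected on both arrays. The members detected on 1 array alone had signals of at most 187.7 there, close to the detection thresholds. Of the 11 genes detected on both arrays, 8 differed upward and 3 downward on the array labelled KO, with a median difference of 0.36, beside a median of -0.01 and 48.8% higher over the 8393 genes detected on both. The difference reached 2-fold upward in 1 of the 16 genes, Cxcl9, and downward in 0, where 1.28% of 9540 detected genes were at least 2-fold higher and 1.11% at least 2-fold lower. At 1.5-fold the counts were 2 higher (Cxcl9 and Cxcl12) and 0 lower, with 4.98% and 4.11% of all detected genes past that size. In the deposited normalized signals the same pair of genes were at least 1.5-fold higher (1.45% of all detected genes) and 0 were lower (1.01%), and at 2-fold there were 0 members in either direction (0.304% of all detected genes higher, 0.199% lower).

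**Figure D1:**
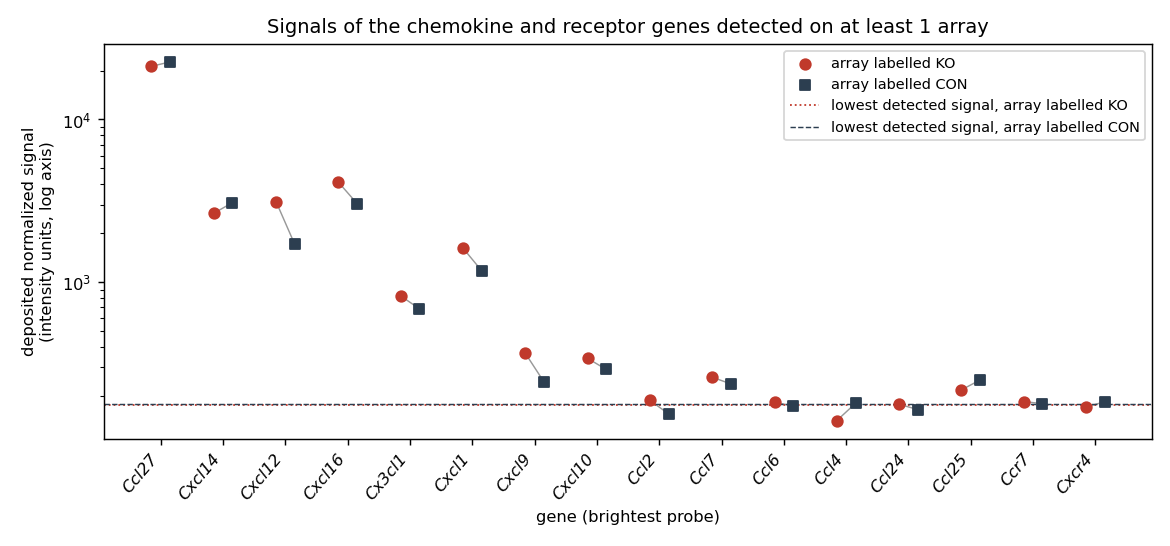
Deposited normalized signal (log axis, intensity units) of the 16 genes detected on at least 1 array, each by its brightest probe, on the array labelled KO (circles) and the array labelled CON (squares), 1 pool of 3 mice each. The horizontal lines, which nearly coincide, are the lowest detected signals, 176.6 on the array labelled KO and 178.5 on the array labelled CON, and the 8 genes from Ccl2 to the right reach at most 260.5 on the array labelled KO and 250.6 on the array labelled CON.

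Ccl27 and Cxcl14 are ligands that healthy epidermis makes constantly. Ccl27, a chemokine made by keratinocytes that attracts skin-homing T cells, had a signal of 21225 on the array labelled KO, against 22585 on the array labelled CON, a difference of -0.06. Its second probe gave 12223 on the array labelled KO and 12430 on the array labelled CON (-0.03). The mouse genome holds near-identical copies of Ccl27, and it is uncertain which of them these probes measured. Cxcl14, made constantly by epithelial cells, had 2649 on the array labelled KO and 3083 on the array labelled CON, a difference of -0.24 (1.18-fold lower). Its other probe gave 1016 and 1328 on the arrays labelled KO and CON, a difference of -0.48 (1.39-fold lower), so both probes of this gene were lower on the array labelled KO.

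Cxcl12, a ligand that retains stem cells and leukocytes in their niches and is made mainly by stromal cells, had the second-largest difference among the 16 genes. The brightest probe read 3130 on the array labelled KO, against 1710 on the array labelled CON, a difference of 0.94 (1.92-fold higher) and a ratio of 1.83 in the deposited signals. The other 4 probes did not share this difference. One gave 293.7 on the array labelled KO and 313.3 on the array labelled CON (-0.18), and another gave 233.4 and 274.6 in the same order of labels (-0.52). The last pair of probes were detected on neither array, with 150.5 and 131.7 on the array labelled KO against 152.6 and 142.9 on the array labelled CON. The 5 probes were designed on 3 different RefSeq transcripts of Cxcl12, and the brightest is the only probe for its transcript. Averaged over the 3 detected probes, the difference was 0.08. The part of transcript choice in this was not tested. Beside it stand the fibroblast markers, of which 4 of 8 were detected and all 4 were lower on the array labelled KO. Of these, 2 were detected on both arrays and the others are bounds, the smallest at least 1.13-fold lower (Col1a1). Summed signals over the list were 1632 on the array labelled KO and 2403 on the array labelled CON. The part of cell content in the Cxcl12 difference was not tested.

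**Figure D2:**
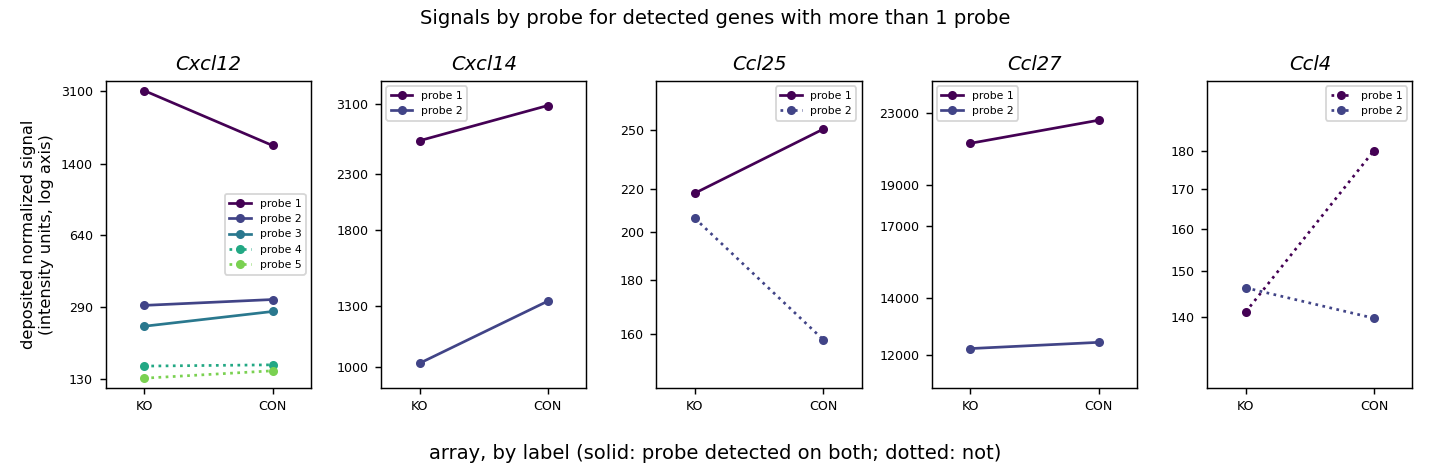
Deposited normalized signal (log axis, intensity units, a separate range for each gene) of every probe of the 5 detected genes that have more than 1 probe, on the array labelled KO (left) and the array labelled CON (right). The brightest Cxcl12 probe is higher on the array labelled KO (3130 against 1710) while its other probes are not, both Cxcl14 probes and both Ccl27 probes are lower on the array labelled KO, and the Ccl25 and Ccl4 probes run in opposite directions.

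The promoters of the members whose difference exceeded 1.3-fold upward and that had a RefSeq entry (assembly GRCm38.p6) are shown because their products fall into separate classes, a stromal ligand (Cxcl12), a neutrophil attractant (Cxcl1) and interferon-induced ligands (Cxcl9 and Cxcl10). Each window runs from 250 bases before to 50 bases after the start of the gene, 5′ to 3′ on the strand of the gene. The windows are chr6:117168285-117168584 (plus strand) for Cxcl12, chr5:90890995-90891294 (plus strand) for Cxcl1, chr5:92328030-92328329 (minus strand) for Cxcl9 and chr5:92348840-92349139 (minus strand) for Cxcl10. Capitals mark matches on either strand to an NF-kB pattern (GGNNTTTCC), an interferon-stimulated response element pattern (GAAANNGAA) and a STAT pattern (TTCNNNGAA).
Cxcl12: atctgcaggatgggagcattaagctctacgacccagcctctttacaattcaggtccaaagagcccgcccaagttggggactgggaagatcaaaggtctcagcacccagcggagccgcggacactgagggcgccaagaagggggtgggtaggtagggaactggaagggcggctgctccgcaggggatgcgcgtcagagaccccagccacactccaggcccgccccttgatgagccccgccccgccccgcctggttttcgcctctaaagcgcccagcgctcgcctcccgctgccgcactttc
Cxcl1: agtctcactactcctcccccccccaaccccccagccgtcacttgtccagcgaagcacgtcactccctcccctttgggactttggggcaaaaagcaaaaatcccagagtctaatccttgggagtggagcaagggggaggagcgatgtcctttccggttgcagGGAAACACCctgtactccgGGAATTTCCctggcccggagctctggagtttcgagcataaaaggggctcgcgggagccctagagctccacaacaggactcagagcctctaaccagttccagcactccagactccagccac
Cxcl9: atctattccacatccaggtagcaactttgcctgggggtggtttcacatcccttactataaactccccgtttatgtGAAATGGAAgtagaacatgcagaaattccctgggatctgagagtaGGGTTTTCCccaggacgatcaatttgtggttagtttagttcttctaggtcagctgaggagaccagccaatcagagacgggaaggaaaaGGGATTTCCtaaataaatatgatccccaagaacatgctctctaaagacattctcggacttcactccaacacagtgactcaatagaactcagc
Cxcl10: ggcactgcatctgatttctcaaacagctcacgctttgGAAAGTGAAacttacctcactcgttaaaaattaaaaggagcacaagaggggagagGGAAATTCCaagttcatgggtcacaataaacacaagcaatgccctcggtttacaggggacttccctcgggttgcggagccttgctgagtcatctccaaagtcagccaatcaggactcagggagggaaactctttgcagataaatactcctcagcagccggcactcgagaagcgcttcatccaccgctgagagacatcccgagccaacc
The Cxcl1 window held 2 NF-kB matches, GGAAACACC on the minus strand beginning 89 bases before the start and GGAATTTCC on the plus strand beginning 70 bases before it. The Cxcl9 window held 2 NF-kB matches, GGGTTTTCC and GGGATTTCC, 130 and 42 bases before the start, and 1 interferon-type match, GAAATGGAA, 175 bases before it. The Cxcl10 window held the interferon-type match GAAAGTGAA 213 bases before the start and the NF-kB match GGAAATTCC on the minus strand 158 bases before it. No pattern matched in the Cxcl12 window, which says only that these letters are not there. Among all 32851 promoter windows of the same length, 5.82% held the NF-kB pattern, 8.56% the interferon pattern and 8.3% the STAT pattern. Of the 16 detected members 10 had a window, and 3 held the NF-kB pattern (Cxcl1, Cxcl9 and Cxcl10), 3 the interferon pattern (Cxcl9, Cxcl10 and Cxcl14) and 1 the STAT pattern (Cxcl14). Of the 34 undetected members 27 had a window, with 4 genes holding the NF-kB pattern, 4 the interferon pattern and 3 the STAT pattern. The lengths of the patterns were set after matches had been seen. With a further G before the NF-kB pattern and a further A after the interferon pattern, both Cxcl1 matches and the Cxcl10 interferon match remained, and none of those in Cxcl9 did. The matches overlapped in none of the printed windows, and a match is no evidence of binding.

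Both ligands that are made as membrane-anchored proteins and shed by proteases were higher on the array labelled KO. Cxcl16, which serves as adhesion ligand and scavenger receptor and attracts Cxcr6-bearing T cells, had 4121 on the array labelled KO, against 3044 on the array labelled CON, a difference of 0.47 (1.38-fold). Cx3cl1, known as fractalkine, had 824.1 on the array labelled KO and 685.9 on the array labelled CON, a difference of 0.36 (1.29-fold). Each has a single probe. Their sheddase Adam17 had 1194 on the array labelled KO and 1197 on the array labelled CON (0.00), and Adam10 was not detected.

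Among ligands induced by inflammation, Cxcl1, a neutrophil attractant that keratinocytes make on stimulation by interleukin 1 or 17, had 1620 on the array labelled KO and 1176 on the array labelled CON. The difference was 0.55 (1.46-fold, and 1.38-fold in the deposited signals). Its relatives Cxcl2 and Cxcl5 were detected on neither array, with 169.2 and 152.5 on the array labelled KO and 165.7 and 141.3 on the array labelled CON. The promoter window of Cxcl2 held 2 NF-kB matches as well. None of 5 neutrophil markers was detected. Their summed signals, 788.7 on the array labelled KO and 787.3 on the array labelled CON, are therefore those of undetected genes alone.

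Cxcl9 and Cxcl10, both induced by interferon and recognised by the T cell receptor Cxcr3, were higher on the array labelled KO. Cxcl9 had 365.8 on the array labelled KO and 243.7 on the array labelled CON, a difference of 1.15 (2.23-fold), but 1.5-fold in the deposited signals. Cxcl10 had 340.3 on the array labelled KO and 290.5 on the array labelled CON, a difference of 0.43 (1.35-fold, and 1.17-fold in the deposited signals). Cxcl11, the other ligand of Cxcr3, was detected on neither array (129.7 on the array labelled KO, 140.8 on the array labelled CON). At the signals of Cxcl9 and Cxcl10 the spread of differences over genes was wide, with an SD of 0.46 for the 1677 genes that were detected on both arrays at a mean signal between 273.2 and 470.2, of which 7.10% lay 1.5-fold or more above 0. The SD was 0.23 over the 1679 brightest genes, which include Cxcl12, Cxcl16, Cxcl14 and Ccl27, and 1.73% of those lay as far above 0. Genes are not replicates, so these SDs describe the scatter of the 2 arrays and are no error of a single gene. For the interferon response itself, genes picked with their values in view gave 0.37 for Ifngr1, a receptor subunit for interferon gamma, and -0.25 for Irf1.

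**Figure D3:**
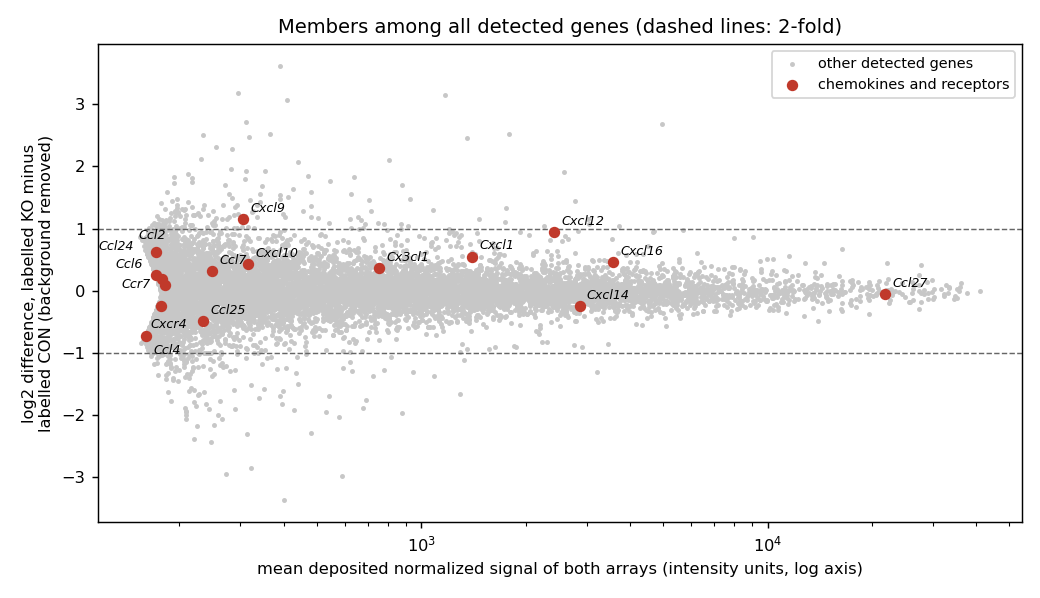
Log2 difference (the array labelled KO minus the array labelled CON, background removed, no bounds applied) against the mean deposited normalized signal (log axis) for all 9540 detected genes, with the 16 chemokine and receptor genes in colour. Dashed lines mark 2-fold, and Cxcl9 (1.15) is the single member beyond them, in the range of signals where the scatter of all genes is wide.

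The CC ligands that attract monocytes were close to background. Ccl7 had 260.5 on the array labelled KO and 236.8 on the array labelled CON, a difference of 0.31 (1.24-fold). Ccl2, a ligand of the same receptor Ccr2, had 187.7 on the array labelled KO and was not well above background on the array labelled CON (155.0), which made it at least 1.13-fold higher. Ccl6, a mouse chemokine of macrophages, had 182.9 on the array labelled KO and was not well above background on the array labelled CON (173.2), at least 1.06-fold apart. Ccl24, an attractant of eosinophils, passed the detection threshold on the array labelled KO alone, with 177.5 there and 164.8 on the array labelled CON, and its bound allowed no difference.

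In the other direction, Ccl4, an inflammatory attractant of macrophages and T cells, was detected on the array labelled CON alone, with 141.0 on the array labelled KO and 180.1 on the array labelled CON (at least 1.05-fold lower). Its other probe was detected on neither array and gave 146.3 on the array labelled KO and 139.7 on the array labelled CON. Ccl25, known for guiding T cells in thymus and gut, had 217.8 on the array labelled KO and 250.6 on the array labelled CON, a difference of -0.49 (1.40-fold lower). Its second probe went the other way, with 206.1 on the array labelled KO and 158.0 on the array labelled CON (at least 1.42-fold higher), so Ccl25 has no direction that its probes share.

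**Figure D4:**
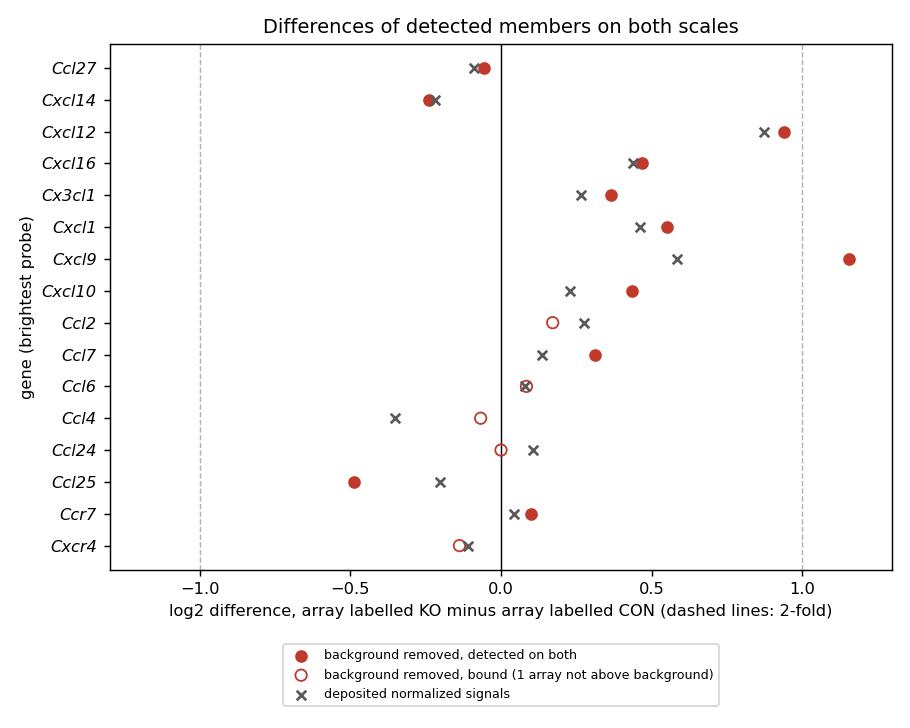
Log2 difference (the array labelled KO minus the array labelled CON) of the 16 detected genes, after background removal (filled circles for genes detected on both arrays, open circles for bounds) and as the ratio of the deposited signals (crosses). Dashed lines mark 2-fold. Cxcl9 passes 2-fold after background removal (1.15) but not in the deposited signals (0.59), and Cxcl12 lies just under it (0.94 and 0.87).

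Of the 14 receptor genes, Ccr7 alone was detected on both arrays. Ccr7, by which dendritic cells leave the skin for lymph nodes, had 184.5 on the array labelled KO and 179.0 on the array labelled CON, a difference of 0.10 (1.07-fold), and both values lay just above the detection thresholds. Cxcr4, the receptor of Cxcl12, was detected on the array labelled CON alone, with 170.8 on the array labelled KO and 184.1 on the array labelled CON (at least 1.10-fold lower). Among the undetected receptors, Ccr1, Ccr1l1, Ccr2, Ccr3, Ccr4, Ccr6, Ccr8, Ccr9, Cxcr3, Cxcr6 and Cx3cr1 lay between 133.4 and 152.5 on the array labelled KO and between 131.0 and 168.5 on the array labelled CON. The highest of these signals, 168.5 for Ccr4 on the array labelled CON, belongs to a receptor of skin-homing T cells, which had 133.4 on the array labelled KO.

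When 11 of the 14 detected ligands (not Ccl4, Ccl6 or Cxcl14) were set beside chosen receptors, 9 of 10 receptors were detected on neither array. That count depends on the pairs chosen. The atypical receptors Ackr2 and Ackr4, which were not among them, were detected on both arrays. Ackr4 had 216.2 on the array labelled KO and 210.2 on the array labelled CON. The undetected receptors of the pairs included Ccr10 for Ccl27 (139.7 on the array labelled KO, 145.4 on the array labelled CON), Cxcr2 for Cxcl1 (152.7 and 148.0 in the same order), and Cxcr3 for Cxcl9 and Cxcl10 (146.1 and 139.4). Cxcr6 for Cxcl16 had 142.2 on the array labelled KO and 136.1 on the array labelled CON, and Cx3cr1 for Cx3cl1 had 149.9 and 138.8 in that order. Ackr3, the scavenging receptor of Cxcl12, had 164.1 and 162.5 on the arrays labelled KO and CON. The array names Ccr10, Cxcr1, Cxcr2, Cxcr5, Cxcl3 and Cxcl17 by older symbols, which left them outside the 50 genes, and all 6 were detected on neither array. In RNA from mixed cells, a receptor carried by few cells and a receptor with little RNA per cell cannot be told apart. Whether each probe responds to its RNA was not tested, so a receptor or ligand not detected here is not shown to be absent.

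The 22 undetected ligands lay between 129.7 and 169.2 on the array labelled KO and between 134.1 and 169.4 on the array labelled CON, with medians of 147.4 and 144.0. They included Ccl20, the ligand of Ccr6 (138.6 on the array labelled KO, 147.0 on the array labelled CON), the Ccr4 ligands Ccl17 (148.0 and 147.0) and Ccl22 (156.9 and 143.2), and the Ccr7 ligands Ccl19 (162.7 and 141.4) and Ccl21a (146.7 and 144.3), each given in the same order. The other undetected ligands were Ccl1, Ccl3, Ccl5, Ccl8, Ccl9, Ccl11, Ccl12, Ccl21b, Ccl21c, Ccl26l, Ccl28, Cxcl2, Cxcl4, Cxcl5, Cxcl11, Cxcl13 and Cxcl15. Ccl21a, Ccl21b and Ccl21c are near-identical copies that their probes may not separate. Their names here are those of the array, and the RefSeq gene table exchanges the names Ccl21a and Ccl21b. Among members around the threshold, the dimmest detected were Ccl24 on the array labelled KO (177.5) and Ccr7 on the array labelled CON (179.0), and the brightest undetected were Cxcr4 on the array labelled KO (170.8) and Ccl6 on the array labelled CON (173.2).

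Many of the genes lie in clusters known from the mouse genome. Chromosome 11 carries 13 members, 12 of them ligands, and 6 of the 13 were detected, the receptor Ccr7 among them. Chromosome 5 carries 11 ligands, of which 4 were detected (Cxcl1, Cxcl9, Cxcl10 and Ccl24). Chromosome 9 carries 10 receptors, of which 0 were detected. The Cxcl members of chromosome 5 detected on both arrays, Cxcl1, Cxcl9 and Cxcl10, were all higher on the array labelled KO.

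Among the related ligands, atypical receptors and receptor signalling genes listed next, none reached 2-fold. Of 14 further genes for atypical receptors, XC chemokines and related ligands, 8 were detected, 3 higher and 5 lower on the array labelled KO and 0 past 2-fold, with a median of -0.12. The decoy receptor Ackr2, which removes inflammatory CC chemokines, had 787.7 on the array labelled KO and 819.2 on the array labelled CON (-0.07). The largest differences were those of Cd74 (0.83), the class II invariant chain that also binds the cytokine Mif, of the T cell chemokine gene Xcl1 (-0.40), of its receptor Xcr1 (-0.26) and of Ccrl2 (-0.19). Of 22 genes for signalling downstream of the receptors, 17 were detected, 8 higher and 9 lower and 0 past 2-fold, with a median of -0.03. Vav1 (0.95), a leukocyte exchange factor, Rgs2 (0.62), Elmo1 (0.61) and the arrestin gene Arrb1 (-0.58) had the largest differences.

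Of 36 upstream cytokines, cytokine receptors and transcription factors on the array, 29 were detected, 19 higher and 10 lower on the array labelled KO and 0 past 2-fold, with a median of 0.10. The alarm cytokine Il1a had 323.7 on the array labelled KO and 249.1 on the array labelled CON (0.76), and Tnf had 235.4 on the array labelled KO and 203.5 on the array labelled CON (0.50). The NF-kB subunit gene Rel was at 0.49 and the alarmin gene Il33 at -0.47. Ifng and Il17a, the T cell cytokines that induce Cxcl9 and Cxcl1, were not detected. Of 12 genes for proteases and proteoglycans that cut or hold chemokines, 11 were detected, 8 higher, 2 lower and 1 (Mmp13) with a bound that allowed no difference, with a median of 0.03. Mmp2, a gelatinase able to cleave CXCL12 and CCL7, was the single one past 2-fold (4923 on the array labelled KO, 2510 on the array labelled CON, 1.04), followed by Mmp3 (-0.51), Mmp9 (0.31) and the hyaluronan receptor gene Cd44 (0.27).

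Marker lists of immune and other cells differed between the arrays to varying degrees, and their part in the chemokine differences was not tested. All 7 keratinocyte markers were detected, 2 higher and 5 lower on the array labelled KO, with summed signals of 118864 on the array labelled KO and 124278 on the array labelled CON. Of 10 genes listed for Langerhans and dendritic cells 8 were detected, 7 of them higher on the array labelled KO, with a median of 0.81. The summed signals were 10450 on the array labelled KO and 7064 on the array labelled CON. Among the 7 was Il34 (1907 on the array labelled KO, 1808 on the array labelled CON), which encodes a cytokine acting on Langerhans cells and does not mark them. Cd207, the defining Langerhans cell lectin, had 839.2 on the array labelled KO and 517.0 on the array labelled CON, whereas Itgax and H2-Aa were not detected. Of 10 T cell markers 6 were detected, 1 higher, 4 lower and 1 (Il2rb) with a bound that allowed no difference, with summed signals of 3276 on the array labelled KO and 3469 on the array labelled CON, and Cd4 and Cd8a were not detected. Of 8 macrophage and monocyte markers 3 were detected and all 3 were higher on the array labelled KO, with summed signals of 1434 there and 1323 on the array labelled CON, and Cd14 and Lyz2 were not detected. Mast cell markers had 1 detected of 5 (Fcer1a) with summed signals of 767.6 on the array labelled KO and 762.5 on the array labelled CON, and B cell markers had 0 of 4 (614.8 and 609.7 in the same order). Of 6 endothelial markers 3 were detected, 2 higher and 1 lower (summed signals 1002 on the array labelled KO, 1010 on the array labelled CON), and Pecam1, Cdh5 and Kdr were not detected. Of 6 melanocyte markers 5 were detected and all 5 were lower on the array labelled KO, with summed signals of 891.6 there and 1686 on the array labelled CON. Median differences over detected genes, bounds included, were -1.14 for fibroblast, -0.93 for melanocyte and 0.48 for macrophage and monocyte markers. They were 0.06 for endothelial, -0.06 for keratinocyte and -0.16 for T cell markers. At least 2-fold lower were 3 fibroblast and 2 melanocyte markers, and 2 Langerhans and dendritic genes were at least 2-fold higher. Over all detected genes the shares were 1.11% lower and 1.28% higher.

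The targeted gene did not separate the arrays in the direction of the labels. The brightest Vdr probe had 2928 on the array labelled KO and 2626 on the array labelled CON (0.17), and both other probes were also higher on the array labelled KO. The position of the probes relative to the deleted exon was not analysed here, and a probe outside it would check nothing. The pools also differed in sex-linked transcripts, with 1943 on the array labelled KO and 994.1 on the array labelled CON for Xist, and 258.1 and 924.8 in that order for the Y-linked Ddx3y, so a different mix of females and males cannot be told apart from genotype for any difference given here.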

How the data were processed

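Keratinocyte RNA from 2 pools, each of 3 mice, was hybridised to Illumina bead arrays, 1 array per group, with groups taken from the genotype labels. The authors deposited a table of average bead intensity per probe (linear scale, GenomeStudio 2011.1 per the submitters' processing notes), a table of normalized intensity whose method is not given in the sources used here, and a value table identical to it. The deposited detection p-values, per the file headers 1 per probe and array, did not follow the rows (Spearman's rho with signal across probes of -0.0073 on the array labelled KO and -0.0053 on the array labelled CON). They were therefore reassigned by signal rank within each array, the smallest to the brightest probe. The non-normalized intensity was then corrected with limma 3.58.1 in R 4.3.3, using normexp background estimates from these p-values (offset 16). It was put on the log2 scale and quantile normalized over the whole table. The procedure was tested on simulated data with known folds, which were placed only in brighter probes. The simulation therefore did not cover signals as low as those of Cxcl9 and Cxcl10 on the array labelled CON. In all, 12147 probes (47.3%) were detected on the array labelled KO and 11994 (46.7%) on the array labelled CON, and the number of arrays limits the precision.

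A gene was kept when detected at p under 0.05 on at least 1 array. For a gene detected on 1 array only, the value on the other array was raised to that array's lowest detected level before subtraction, which gives a bound. Symbols outside the member rule were updated through the RefSeq gene table of GRCm38.p6 (25376 of 25697 probes matched), and promoter sequences are RefSeq's. Every detected member is named, undetected members are named in groups, and each context list is given by its counts with up to 4 detected members of the largest difference, further genes being named after their values were seen or for their role. The members and lists were chosen with earlier results of these data known. With 1 array per group no test, p-value or replicate check was possible. Alternatives tried were the deposited values, no background removal, an offset of 50, averaged probes and other detection rules. Values of a few list genes are not reported here.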

Additional observations from a re-analysis of the deposited data

How the results depend on the processing

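Of the members, 1 (Cxcl9) passed 2-fold upward, and this count was 0 in the deposited normalized values, without background removal and with an offset of 50. The count was also 1 with averaged probes, with detection on both arrays, with no detection filter and with detection p under 0.01. These alternatives could not move Cxcl9, which has 1 probe and was detected on both arrays at either p threshold. They are therefore no check on its difference. The count of members 2-fold lower was 0 under every alternative run. The median difference of detected members, 0.14 with bounds, was 0.035 without background removal, 0.36 for genes detected on both arrays and 0.40 with detection p under 0.01, and positive under every alternative run. The number of members detected was 16, but 10 with detection p under 0.01 and 19 against the 95th percentile of olfactory and vomeronasal receptor probes. Of 64 recomputed single-gene differences, 60 moved by less than 1.5-fold. The other 4 were Cxcl9 without background removal (0.55) and, averaged over detected probes, Cxcl12 (0.08), Ccl25 (0.21) and Ccl4 (-0.73, as a plain difference in place of a bound). Ccl25 alone changed sign. The 1.5-fold limit is larger than most of the differences themselves. Without background removal Cxcl10 (0.22 in place of 0.43) and Ccl25 (-0.17 in place of -0.49) therefore still count among the 60. Averaging over probes could not change a gene with a single probe that was detected on both arrays. No paired analysis was possible because each group holds 1 array. Signals close to background limit all receptors and most CC ligands.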
